A study of Mus musculus with 10 samples.

Results

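Integrins and the proteins of the focal adhesion were examined as a set of 38 genes in RNA-seq data of mouse lens epithelium. The set was given as a list of symbols, 12 integrin alpha subunits, 8 integrin beta subunits, 9 genes of the talin, kindlin and ILK-PINCH-parvin module, and 9 kinases, scaffolds and actin linkers, and all 38 were found among the 50763 genes of the count table. Lens epithelia were explanted from 3-week-old FVB/N mice and pooled into 10 libraries, 3 of wild-type (WT) animals, 3 of OVE853 and 4 of OVE918. Both lines are independent transgenic families, kept homozygous, in which the lens-specific αA-crystallin promoter drives a secreted, constitutively active human TGF-β1, and both form plaques under the anterior lens capsule (anterior subcapsular cataract). No treatment was given. A pool held the epithelia of up to 9 mice in WT and OVE853 and of up to 7 mice in OVE918, and the whole epithelium was used rather than the plaque alone. The p-values therefore measure the spread between pools.

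Integrins are receptors built of an alpha and a beta chain that span the cell membrane. Outside the cell they bind matrix proteins such as laminin, collagen and fibronectin, and inside it talin and kindlin bind the beta chain and join it to actin through vinculin, the ILK-PINCH-parvin complex and tensins. Focal adhesion kinase and Src signal from these sites. In the lens, the epithelium rests on the laminin- and collagen IV-rich capsule, which it grips with laminin-binding integrins, and integrins that carry αv release TGF-β from its latent complex.

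The libraries held 24073311 to 31908525 counts on genes. Levels are given below as CPM, the counts of a gene scaled to the TMM-adjusted depth of its library, and comparisons between genes as FPKM, which divides the CPM by exon length. The Tgfb1 row, to which reads of the human transgene may map, held 50.6, 61.8 and 50.7 CPM in WT, 361.3, 338.7 and 348.6 CPM in OVE853, and 880.7, 715.4, 716.9 and 787.6 CPM in OVE918. Its level thus rose from WT to OVE853 to OVE918, with no overlap. All 9 lens epithelium markers were detected in every library, and their summed level was 154000 to 160000 CPM in WT, 105000 to 119000 CPM in OVE853 and 129000 to 196000 CPM in OVE918. The sum does not stand for each marker. At a false discovery rate of at most 0.05 in the test below, 3 of the 9 were lower in each line and 0 were higher. Among all genes tested, 7.68% were lower in OVE853 and 11% in OVE918. The log2 fold changes in OVE853 and OVE918 were −2.31 and −3.05 for Gja1, −0.76 and −0.61 for Cdh1, and −0.38 and −0.66 for Six3. WT replicate 3 stood apart in its marker sums. It had the highest sums of retinal markers (585 CPM, against 39.3 to 119 CPM elsewhere) and endothelial markers (118 CPM, against 20.2 to 35.4 CPM elsewhere). Lens fiber cell markers summed to 95800 CPM in OVE918 replicate 4 and 89900 CPM in OVE918 replicate 1, against 24900 to 65700 CPM in the other libraries. Markers of non-pigmented ciliary epithelium summed to 384 to 484 CPM in WT, 179 to 194 CPM in OVE853 and 105 to 125 CPM in OVE918, and those of corneal epithelium to 239 to 1630, 64.9 to 96 and 27.5 to 83.1 CPM. In such bulk samples, fewer cells of a type and less RNA per cell cannot be told apart.

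Of the 38 genes, 26 reached at least 2 FPKM in 5 of the 10 libraries and entered the test with 11094 genes in all. These were 7 of 12 alpha subunits, 3 of 8 beta subunits, 8 of 9 genes of the talin, kindlin and ILK-PINCH-parvin module and 8 of 9 kinases, scaffolds and linkers. Itga2, Itga7, Itga8 and Itgb8 reached the minimum in 5, 7, 6 and 6 libraries and every other gene of the 26 in all 10, so that counts and medians over the 26 lean towards genes that are high in the transgenic lines and do not stand for all 38. A gene was counted as a DEG when its false discovery rate (FDR, the Benjamini-Hochberg adjusted p of edgeR's quasi-likelihood test) was no higher than 0.05 and its log2 fold change was 1 or more in size. In OVE853, 3 of the 26 were elevated DEGs (Itga2, Itga7 and Itga8), against 2.51% of all genes tested, and 0 were reduced DEGs, against 1.91%. At an unadjusted p under 0.05, 3 were lower in OVE853 at any fold (Src, Tns1 and Zyx), and DESeq2 likewise called 0 reduced. The share of all genes at that p was not counted, so these 3 cannot be set against it. In OVE918, 2 were elevated DEGs (Itga2 and Itga7), against 2.58% of all genes, and 1 was reduced (Tns1), against 3.01%.

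By FDR alone, 7 of the 26 were higher in OVE853 than in WT (8.1% of all genes were) and 2 were lower (7.68% of all genes). In OVE918, 5 were higher (8% of all genes) and 4 were lower (11% of all genes). Libraries did not overlap with WT for 10 genes above and 3 below in OVE853, where 23.4% and 22% of all genes did not, and for 6 above and 6 below in OVE918, where 12.3% and 15% of all genes did not. The median log2 fold change of the 26 was 0.07 in OVE853 and 0.14 in OVE918, beside −0.01 and 0.01 over all genes tested. The 7 alpha subunits tested had medians of 0.98 and 0.65, and the 8 kinases, scaffolds and linkers had medians of −0.07 and −0.30. Itga2, Itga7 and Itga8 met the FPKM minimum in 5, 7 and 6 libraries, so the alpha medians lean upwards and are not comparable with the others. The alpha subunits over the minimum in all 10 libraries had log2 fold changes of 0.16 and −0.36 (Itga3), 0.98 and 0.65 (Itga5), 0.56 and 0.53 (Itga6), and 0.06 and −0.05 (Itgav). Both comparisons use the same 3 WT libraries. The plot of fold changes over WT sets the 26 genes side by side.

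**Figure D1:**
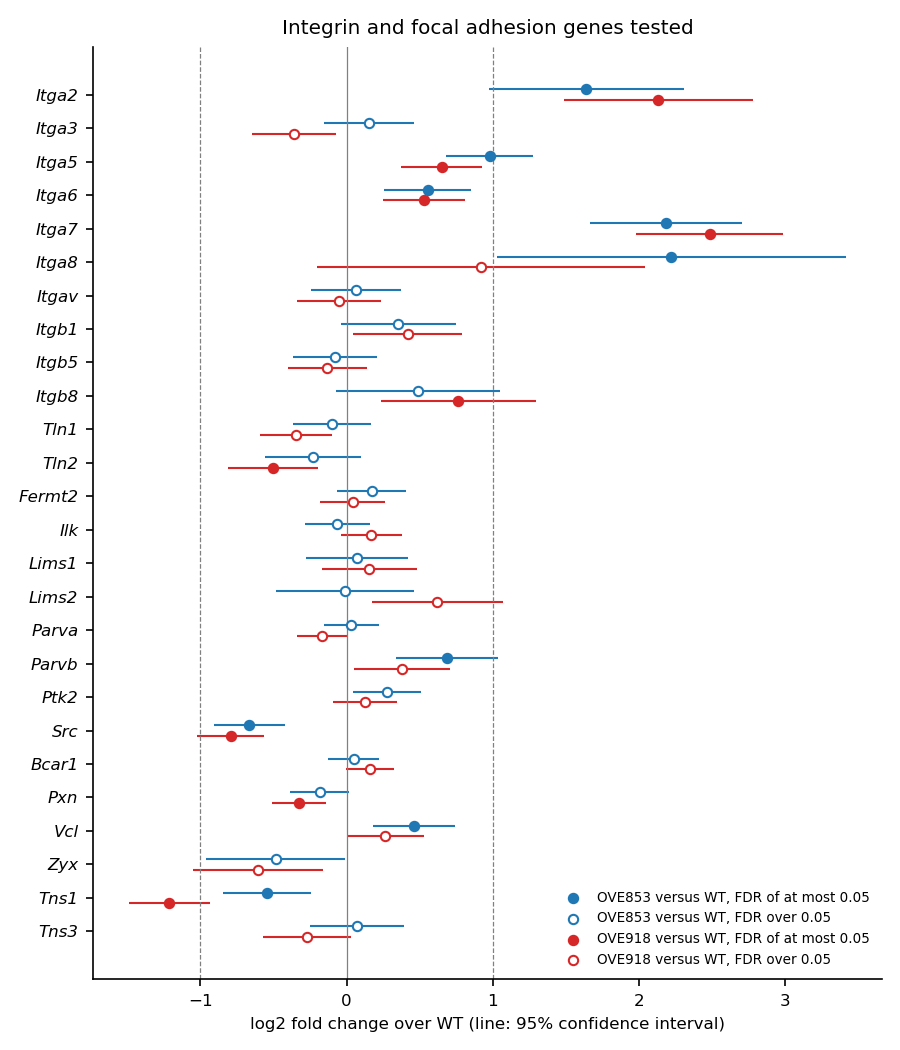
Log2 fold change over WT (x axis) of the 26 integrin and focal adhesion genes tested, in OVE853 (blue) and OVE918 (red), with 95% confidence intervals as lines and filled points where the FDR was at most 0.05. Itga2 and Itga7 lie beyond a log2 fold change of 1 in both lines, Itga8 does so with a filled point in OVE853 only, and Tns1 lies below −1 in OVE918.

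The alpha subunits held the largest rises of the set. Itga7 encodes the α7 chain, which pairs with β1 and binds laminin and is best known from the muscle membrane. Itga7 read 6.84, 7.31 and 6.98 CPM in WT, 31.6, 21.8 and 42.9 CPM in OVE853, and 37.1, 30.7, 43.5 and 47.0 CPM in OVE918. The transgenic libraries all exceeded the WT ones, and the WT libraries lay close together. The gene was elevated 4.55-fold in OVE853 (log2 fold change 2.19, SE 0.24, FDR 0.000201) and 5.61-fold in OVE918 (log2 fold change 2.49, SE 0.23, FDR 4.2e-05). Leaving out any 1 library kept the FDR at 0.000113 to 0.00151 in OVE853 and at 2.53e-05 to 0.000381 in OVE918.

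Itga2 encodes the α2 chain, which pairs with β1 as a collagen receptor of epithelia and platelets. Itga2 read 6.75, 4.77 and 2.80 CPM in WT, 16.9, 15.4 and 12.1 CPM in OVE853, and 13.9, 25.4, 22.8 and 21.1 CPM in OVE918. Again no transgenic library reached down to the WT range. It was elevated 3.12-fold in OVE853 (log2 fold change 1.64, SE 0.30, FDR 0.00597) and 4.39-fold in OVE918 (log2 fold change 2.13, SE 0.29, FDR 0.000616). Itga2 passed the minimum of 2 FPKM in exactly 5 libraries, so that it left the tested set without OVE853 replicate 1 or 2 or OVE918 replicate 2, 3 or 4. Under a filter on counts in place of FPKM (edgeR's filterByExpr), it stayed in the test and the call held without any 1 library, with the FDR at 0.0041 to 0.0453 in OVE853 and 0.00068 to 0.00582 in OVE918. Platelet and erythrocyte markers, of which 1 of 7 was at 0 throughout, summed to 23.2 to 43.5 CPM in WT, 10.3 to 35.2 CPM in OVE853 and 15.8 to 75.9 CPM in OVE918, and their part in the level of Itga2 was not tested.

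The 250 bases before the start sites of Itga2, Itga7 and Itgb5 are shown. Among the 26 genes tested, Itga2 and Itga7 were the subunits that were elevated DEGs in both lines. Itgb5, the most abundant subunit, passed the test in neither line. The windows are from the GRCm39 assembly, with the start of the canonical GENCODE transcript, and run 5′ to 3′ on the strand of the gene. Itga2 is at chr13:115068637-115068886 (minus strand), Itga7 at chr10:128769371-128769620 (plus strand) and Itgb5 at chr16:33649738-33649987 (plus strand). Capitals mark the letters CAGAC, the core bound by SMAD proteins downstream of TGF-β, on either strand (GTCTG on the other), and GGAATG, a site of the TEAD factors.
Itga2: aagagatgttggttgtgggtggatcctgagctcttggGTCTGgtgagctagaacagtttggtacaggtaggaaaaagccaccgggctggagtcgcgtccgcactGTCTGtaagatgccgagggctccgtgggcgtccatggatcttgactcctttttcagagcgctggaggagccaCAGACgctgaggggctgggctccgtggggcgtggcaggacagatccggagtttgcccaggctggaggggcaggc
Itga7: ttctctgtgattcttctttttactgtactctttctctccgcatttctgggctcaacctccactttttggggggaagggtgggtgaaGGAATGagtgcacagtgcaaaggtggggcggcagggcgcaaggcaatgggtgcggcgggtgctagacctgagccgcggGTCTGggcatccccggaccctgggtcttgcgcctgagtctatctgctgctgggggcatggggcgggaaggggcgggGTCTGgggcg
Itgb5: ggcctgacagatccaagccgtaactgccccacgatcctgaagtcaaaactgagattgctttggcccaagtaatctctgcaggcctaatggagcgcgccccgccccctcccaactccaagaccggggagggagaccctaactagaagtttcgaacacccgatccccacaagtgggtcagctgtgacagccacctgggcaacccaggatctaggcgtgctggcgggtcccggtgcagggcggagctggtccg
Counted from the start site to the first base of a match, the window of Itga2 held CAGAC at −213, −146 and −74, and that of Itga7 at −86 and −10, with GGAATG at −164. That of Itgb5 held none of the motifs searched. CAGAC was present in 40.5% of the 11093 windows of tested genes and in 12 of the 26 integrin and focal adhesion genes tested. GGAATG was present in 11.6% of windows and 5 of the 26, and TGANTCA, the letters of an AP-1 site, in 4.36% of windows and 1 of the 26. Both strands were searched, the matches in the printed windows did not overlap, and a match describes letters only.

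Itga8 encodes the α8 chain, which pairs with β1 and binds nephronectin and fibronectin. Itga8 read 13.3, 9.23 and 2.03 CPM in WT, 30.2, 40.7 and 42.8 CPM in OVE853, and 17.4, 18.6, 15.4 and 9.96 CPM in OVE918. The OVE853 libraries lay above all others, the OVE918 libraries overlapped with WT, and WT replicate 3 was lowest. The gene was elevated 4.67-fold in OVE853 (log2 fold change 2.22, SE 0.53, FDR 0.024), and its log2 fold change in OVE918 was 0.92 (SE 0.50, FDR 0.234). The OVE853 call was lost without WT replicate 2 or without OVE853 replicate 1, 2 or 3 (FDR 0.0555, 0.0552, 0.0617 and 0.0778), and with only the groups compared in the fit (FDR 0.0677). These were not the only losses, since 8 alternatives put it over the FDR limit and 13 did not. Markers of pericytes and smooth muscle, which can carry this chain, summed to 94.4 to 124 CPM in WT, 118 to 158 CPM in OVE853 and 113 to 135 CPM in OVE918, and their part was not tested.

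The fibronectin receptor subunit Itga5 and the laminin receptor subunit Itga6 were higher in both lines by less than 2-fold. Itga5, whose α5 chain joins β1 in the classical fibronectin receptor, read 15.3, 14.6 and 12.1 CPM in WT, 29.0, 25.3 and 28.4 CPM in OVE853, and 18.9, 20.4, 25.2 and 23.2 CPM in OVE918. Neither line overlapped with WT, and OVE918 lay below OVE853 in every library. Its fold change on the log2 scale was 0.98 in OVE853 (SE 0.13, FDR 0.000898) and 0.65 in OVE918 (SE 0.13, FDR 0.00465), and it passed the FDR limit without any 1 library.

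Itga6 read 345.7, 325.9 and 269.5 CPM in WT, 463.4, 478.7 and 441.0 CPM in OVE853, and 444.9, 508.6, 484.3 and 373.5 CPM in OVE918. Its α6 chain pairs with β1 or β4 on laminin, and every transgenic library was above WT. By the test its log2 fold change was 0.56 in OVE853 (SE 0.13, FDR 0.0194) and 0.53 in OVE918 (SE 0.13, FDR 0.0141). In OVE853 the FDR rose above the limit without WT replicate 3 (0.0504) and without OVE853 replicate 1, 2 or 3 (0.0735, 0.0711 and 0.0584), and in OVE918 with only the groups compared in the fit (0.0512).

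Itga3 was the most abundant alpha subunit in WT, at 47.2 FPKM ± 7.29 (SD, n = 3). It encodes the α3 chain of the laminin receptor α3β1. Itga3 read 242.8, 265.8 and 194.7 CPM in WT, 256.6, 254.1 and 273.3 CPM in OVE853, and 171.8, 218.8, 182.2 and 159.1 CPM in OVE918. The OVE918 libraries overlapped with WT through WT replicate 3 but lay below all OVE853 libraries. Its log2 fold changes were 0.16 in OVE853 (SE 0.14, FDR 0.446) and −0.36 in OVE918 (SE 0.13, FDR 0.0804), and the latter passed the FDR limit without WT replicate 3 (−0.48, FDR 0.0233) or OVE918 replicate 2 (−0.45, FDR 0.029). Itgav, the αv chain of vitronectin receptors and of TGF-β activation, had log2 fold changes of 0.06 (95% confidence interval −0.24 to 0.37) and −0.05 (−0.34 to 0.24).

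**Figure D2:**
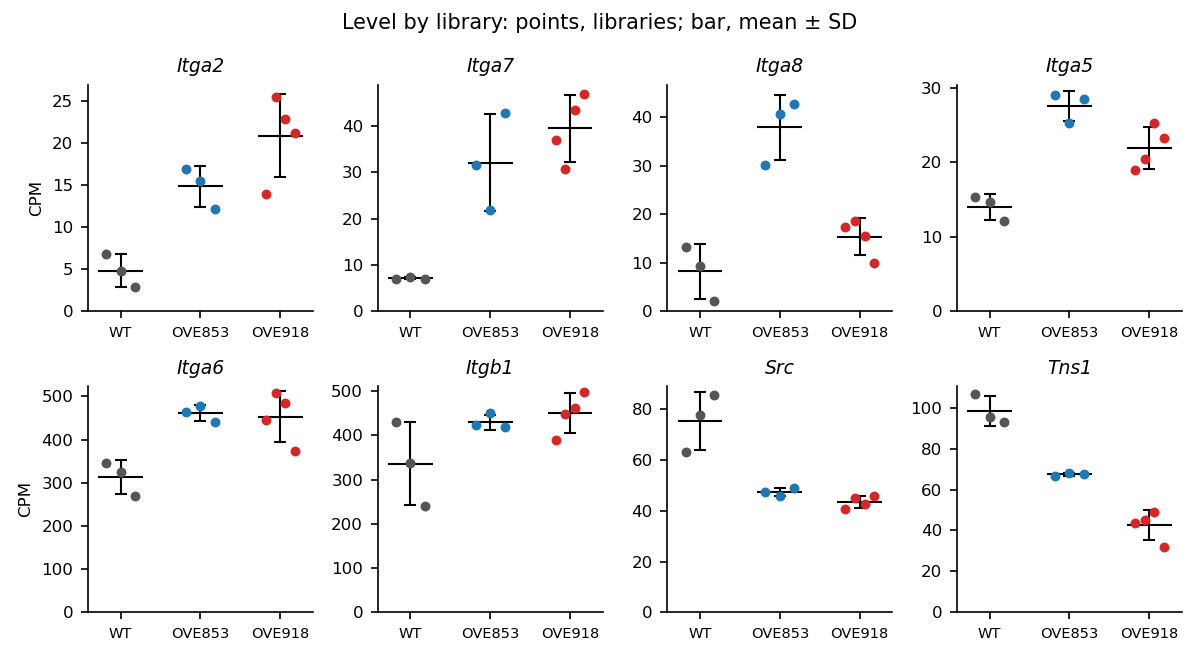
TMM-scaled CPM (y axis, from 0, own scale in each panel) of 8 genes in each library, by group, with points for libraries and bars for the mean ± SD (n = 3, 3 and 4). Transgenic libraries lie above WT for Itga2, Itga5, Itga6 and Itga7 and below WT for Src and Tns1, OVE853 alone is apart for Itga8, and Itgb1 overlaps.

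Among the beta subunits, both abundant chains missed the FDR limit. Itgb5, which pairs with αv on vitronectin, was the most abundant subunit in WT at 172.5 FPKM ± 20.2 (SD, n = 3). It read 600.8, 624.1 and 497.5 CPM in WT, 573.1, 567.1 and 490.2 CPM in OVE853, and 457.5, 538.7, 504.5 and 597.5 CPM in OVE918. The groups overlapped, with log2 fold changes of −0.08 (95% confidence interval −0.37 to 0.21) and −0.13 (−0.40 to 0.14).

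Itgb1 encodes the β1 chain, the partner of all 7 alpha chains tested. Itgb1 read 429.6, 338.3 and 240.4 CPM in WT, 422.2, 449.2 and 417.6 CPM in OVE853, and 389.6, 447.5, 462.3 and 498.2 CPM in OVE918. The WT libraries were spread widely, and the highest of them lay within the range of both lines. The test gave a log2 fold change of 0.35 in OVE853 (SE 0.18, FDR 0.187) and 0.42 in OVE918 (SE 0.17, FDR 0.109). Without WT replicate 1 the gene passed the FDR limit in both (0.57, FDR 0.0292, and 0.63, FDR 0.0138), and so it did with sample weights (0.31, FDR 0.0337, and 0.35, FDR 0.0288).

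Itgb8, whose αvβ8 integrin activates latent TGF-β, read 14.1, 7.93 and 15.5 CPM in WT, 18.2, 18.2 and 16.2 CPM in OVE853, and 24.8, 20.9, 25.1 and 14.2 CPM in OVE918. It was above WT in all OVE853 libraries, whereas OVE918 replicate 4 fell within the WT range. On the log2 scale its fold change was 0.49 in OVE853 (SE 0.25, FDR 0.197) and 0.77 in OVE918 (SE 0.24, FDR 0.0489). The OVE918 value rose over the FDR limit when any 1 library other than WT replicate 3 and OVE918 replicate 4 was left out, to 0.0569 without WT replicate 1, 0.119 without WT replicate 2, 0.0685, 0.0689 and 0.0665 without OVE853 replicate 1, 2 or 3, and 0.108, 0.0786 and 0.116 without OVE918 replicate 1, 2 or 3.

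The makeup of the subunits shifted with these changes. In WT, Itga3 made up 42.5% ± 1.90 of the summed FPKM of the 12 alpha subunits, Itga6 35.5% ± 1.27 and Itgav 15.0% ± 0.561 (SD, n = 3). In OVE853 the shares were 34.7% ± 0.814, 38.2% ± 2.14 and 11.4% ± 0.346 (n = 3), and in OVE918 28.1% ± 1.52, 43.3% ± 1.44 and 12.2% ± 0.879 (n = 4). By these lengths, Itga3 led in WT and Itga6 in both lines. With exon lengths over all transcripts, Itga3 took 47.3%, 39.4% and 32.4% and Itga6 32.4%, 35.6% and 41.0% in WT, OVE853 and OVE918, so that the order in OVE853 turns with the lengths used.

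Per length, the ratio of Itga6 to Itga3 was 0.888, 0.764 and 0.863 in WT, 1.13, 1.17 and 1.01 in OVE853, and 1.61, 1.45, 1.66 and 1.46 in OVE918. The groups did not overlap in this ratio, which was chosen after its values were seen and was not tested. Itga7 took 1.51% ± 0.199 of alpha FPKM in WT, 4.98% ± 1.56 in OVE853 and 7.26% ± 1.97 in OVE918. Of the summed FPKM of the 8 beta subunits, Itgb5 took 71.7% ± 3.95, 64.6% ± 1.61 and 62.6% ± 1.18, and Itgb1 27.4% ± 4.08, 34.0% ± 1.62 and 35.7% ± 0.976. With exon lengths over all transcripts, Itgb5 took 58.9%, 50.6% and 48.5% and Itgb1 39.9%, 47.4% and 49.2%, so that the order of these 2 chains in OVE918 depends on the lengths used.

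**Figure D3:**
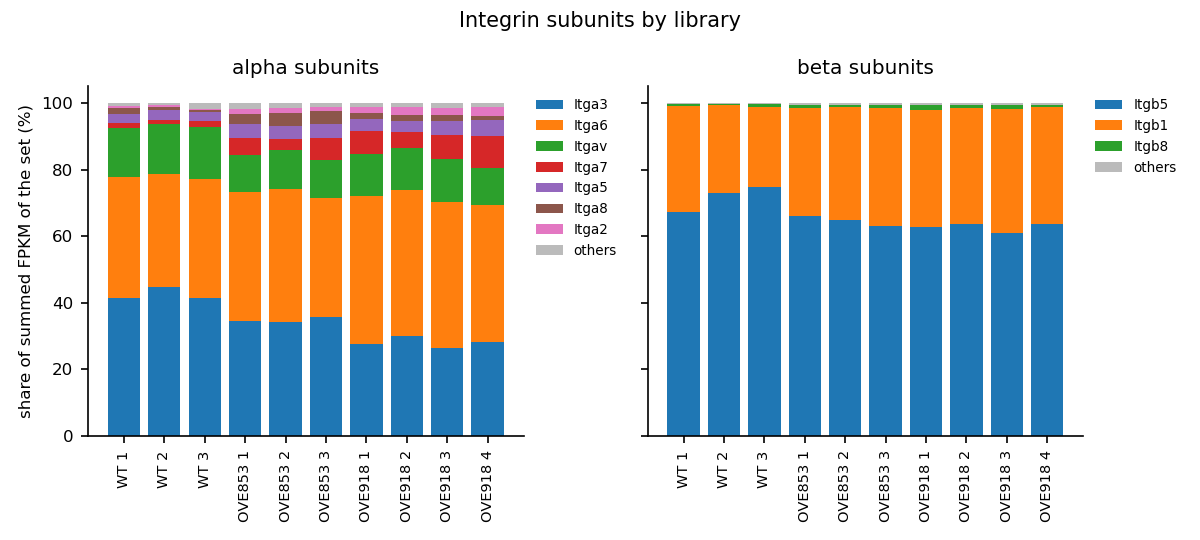
Share (%) of each integrin subunit in the summed FPKM of the 12 alpha subunits (left) and the 8 beta subunits (right), 1 stacked bar per library. Itga3 makes up 41.3% to 44.7% of alpha FPKM in WT libraries, 34.1% to 35.7% in OVE853 and 26.5% to 30.1% in OVE918.

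Integrin genes under the FPKM minimum were fitted with filterByExpr, which kept 18058 genes and 35 of the 38 (all but Itgb6, Itgb7 and Fermt1). In that fit, 6 of the 35 were elevated DEGs in OVE853 (Itga1, Itga2, Itga7, Itga8, Itga11 and Itgb4), against 3.17% of genes, and 5 in OVE918 (Itga2, Itga7, Itga11, Itgb2 and Itgb4), against 3.45%. Itgb4, the hemidesmosome chain that pairs with α6, read 1.70, 2.46 and 2.24 CPM in WT, 6.56, 4.48 and 6.64 CPM in OVE853, and 4.58, 6.30, 6.91 and 7.20 CPM in OVE918. No transgenic library overlapped with WT. Its log2 fold change was 1.47 in OVE853 (SE 0.25, FDR 0.00463) and 1.57 in OVE918 (SE 0.24, FDR 0.00139), and both calls held without any 1 library. Its counts were 38 to 64 in WT and 107 to 217 in the transgenic libraries. Corneal epithelium, a hemidesmosome-rich tissue, gave marker sums of 239 CPM or more in WT and of 96 CPM or less in both lines. Of its 6 markers, 1 entered the test, and the part of this tissue in the level of Itgb4 was not tested.

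Itga11, whose α11 chain binds fibrillar collagen on fibroblasts, read 0.492, 0.231 and 0.245 CPM in WT, 1.21, 1.15 and 0.987 CPM in OVE853, and 0.814, 1.53, 1.71 and 2.31 CPM in OVE918. These levels were low but without overlap. Its fold change on the log2 scale was 1.80 in OVE853 (SE 0.45, FDR 0.0265) and 2.33 in OVE918 (SE 0.43, FDR 0.00425). In OVE853 the call was lost without WT replicate 2 or 3 (FDR 0.0699 and 0.0765) and without OVE853 replicate 1, 2 or 3 (0.0888, 0.0698 and 0.0689), and in OVE918 it held without any 1 library.

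Itga1, another collagen receptor chain, read 2.10, 1.73 and 0.526 CPM in WT, 4.23, 4.86 and 3.92 CPM in OVE853, and 2.27, 3.24, 3.64 and 1.89 CPM in OVE918. It was apart from WT in OVE853 and overlapped in OVE918. By the test its log2 fold change was 1.58 in OVE853 (SE 0.44, FDR 0.0388) and 0.95 in OVE918 (SE 0.42, FDR 0.14). The OVE853 FDR was 0.0597 without WT replicate 2, 0.108, 0.102 and 0.102 without OVE853 replicate 1, 2 or 3, and 0.0513 and 0.0535 without OVE918 replicate 1 or 3.

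Itgb2, the β2 chain of leukocytes, read 0.581, 0.0769 and 0.736 CPM in WT, 1.72, 1.41 and 1.19 CPM in OVE853, and 1.88, 1.04, 1.60 and 2.31 CPM in OVE918. All transgenic libraries lay above WT at 28 to 57 counts each. The test gave a log2 fold change of 1.64 in OVE853 (SE 0.56, FDR 0.075) and 1.89 in OVE918 (SE 0.54, FDR 0.0358). The OVE918 call was lost without OVE853 replicate 1, 2 or 3 (FDR 0.0555, 0.0542 and 0.0538) and without OVE918 replicate 1, 3 or 4 (0.0672, 0.0703 and 0.0766).

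Leukocyte and macrophage markers overlapped with WT in their sums and are given beside Itgb2. The sum was 18.3 to 46.5 CPM in WT, 39.1 to 64.4 CPM in OVE853 and 29.6 to 79.3 CPM in OVE918, with 3 of 12 markers in the test, of which 1 passed the FDR limit, in OVE918, and the pan-leukocyte marker Ptprc at 0.154 to 1.09 CPM. The log2 fold changes of these 3 in OVE853 and OVE918 were 1.35 and 1.35 for C1qa, 1.36 and 1.32 for C1qb, and 1.14 and 1.04 for Tyrobp. Their FDRs were 0.0446 to 0.122. C1qa and C1qb lay above WT in every OVE853 library and overlapped with WT in OVE918, and Tyrobp overlapped in both lines. Itgam, the αM partner of β2 on macrophages, read 0.492, 0.769 and 2.21 CPM in WT, 3.90, 3.19 and 3.78 CPM in OVE853, and 3.08, 1.45, 2.94 and 4.24 CPM in OVE918. The part of these cells in the level of Itgb2 was not tested. None of the 8 further integrin subunits listed, Itgam among them, reached the FPKM minimum.

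**Figure D4:**
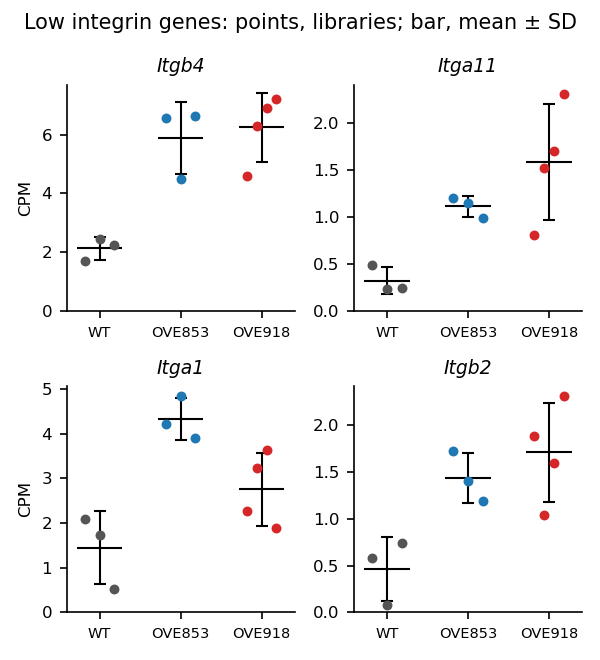
TMM-scaled CPM (y axis, from 0, own scale in each panel) of Itgb4, Itga11, Itga1 and Itgb2 in each library, by group, with points for libraries and bars for the mean ± SD (n = 3, 3 and 4). All transgenic libraries lie above WT for Itgb4, Itga11 and Itgb2, and OVE918 overlaps with WT for Itga1.

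Of the other 8 genes under the FPKM minimum, 5 were kept by filterByExpr, and these passed the test in neither line. Itga9 read 1.77 to 8.87 CPM in WT, with the highest value in WT replicate 3, and 4.77 to 9.18 CPM in the transgenic libraries. Itga10 stood at 0.769 to 2.93 CPM, Itga4 at 0.138 to 1.58 CPM and Itgb3 at 0.231 to 1.15 CPM over all libraries. The LIM-domain gene Tes read 2.63 to 9.36 CPM, highest in WT replicate 3. Itgb6, Itgb7 and Fermt1 (kindlin-1) had at most 6, 4 and 2 counts in any library, passed neither filter and were not tested. Itgb6 had 3, 2 and 6 counts in the WT libraries and 0 or 1 in each transgenic library. Counts this low limit what can be said of a difference.

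Inside the cell, 7 of the 8 genes tested in the talin, kindlin and ILK-PINCH-parvin module missed the FDR limit in each line. Most genes did so. Of all genes tested, 8.1% were higher and 7.68% lower by FDR in OVE853, and 8% and 11% in OVE918. Parvb, which encodes β-parvin, read 13.1, 13.5 and 16.7 CPM in WT, 25.4, 18.2 and 26.2 CPM in OVE853, and 19.0, 19.2, 20.7 and 16.2 CPM in OVE918. OVE853 lay above WT, and OVE918 overlapped with it. On the log2 scale its fold change was 0.69 in OVE853 (SE 0.16, FDR 0.0161), which missed the limit without OVE853 replicate 1 or 3 (FDR 0.068 and 0.0704), and 0.38 in OVE918 (SE 0.15, FDR 0.103).

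Tln2, the second talin, was lower in OVE918, at 121.2 to 195.7 CPM against 219.8 to 242.5 CPM in WT (log2 fold change −0.50, SE 0.14, FDR 0.0281). That FDR was 0.0732 and 0.0652 without WT replicate 2 or 3 and 0.0571 and 0.0512 without OVE918 replicate 1 or 3. In OVE853 its log2 fold change was −0.23 (FDR 0.293). Tln1, the widely expressed talin, had log2 fold changes of −0.10 (FDR 0.58) and −0.35 (FDR 0.0546).

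The core genes of the module passed the FDR limit in neither line. Ilk, the scaffold of the ILK-PINCH-parvin complex, was its most abundant gene at 64.3 FPKM ± 2.35 in WT (SD, n = 3), with log2 fold changes of −0.06 (95% confidence interval −0.29 to 0.16) and 0.17 (−0.04 to 0.38). Fermt2, which encodes kindlin-2, had 0.17 (−0.06 to 0.41) and 0.04 (−0.18 to 0.26), and Parva, α-parvin, 0.03 (−0.15 to 0.22) and −0.17 (−0.34 to 0.01). Lims1, PINCH-1, had 0.07 (−0.28 to 0.42) and 0.16 (−0.17 to 0.48). Lims2, PINCH-2, had −0.01 in OVE853 (−0.49 to 0.46) and 0.62 in OVE918 (0.18 to 1.07, FDR 0.054).

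Among the kinases, scaffolds and actin linkers, Src and Tns1 were lower in both lines. Src encodes the tyrosine kinase that acts with focal adhesion kinase. Src read 62.9, 77.7 and 85.3 CPM in WT, 47.5, 45.9 and 49.0 CPM in OVE853, and 40.5, 45.0, 42.7 and 45.7 CPM in OVE918. All transgenic libraries lay below WT and close together. Its fold change on the log2 scale was −0.67 in OVE853 (SE 0.11, FDR 0.00307) and −0.79 in OVE918 (SE 0.10, FDR 0.000374), a level 1.59-fold and 1.73-fold lower than in WT, and both passed the FDR limit without any 1 library.

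Tns1, tensin 1, which links integrins to actin and marks mature fibrillar adhesions, read 106.8, 95.3 and 93.2 CPM in WT, 66.6, 68.2 and 67.6 CPM in OVE853, and 43.7, 45.0, 49.2 and 32.0 CPM in OVE918. The groups fell in the order WT, OVE853, OVE918 with no overlap. By the test its log2 fold change was −0.55 in OVE853 (SE 0.14, FDR 0.0227) and −1.21 in OVE918 (SE 0.13, FDR 8.7e-05), where the gene was a reduced DEG, 2.32-fold below WT. The OVE918 call held without any 1 library, while the OVE853 FDR was 0.0791, 0.071 and 0.0744 without OVE853 replicate 1, 2 or 3. The marker sums of non-pigmented ciliary epithelium put the groups in the same order. Those of corneal epithelium were 239, 945 and 1630 CPM in WT replicates 1, 2 and 3 and 96 CPM or less in both lines. Over these WT replicates Src rose and Tns1 fell. The part of either tissue in the levels of Src and Tns1 was not tested.

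Vcl and Pxn each passed in 1 line. Vcl, vinculin, which bears load between talin and actin, read 81.4, 81.4 and 80.5 CPM in WT, 111.2, 104.4 and 119.8 CPM in OVE853, and 83.3 to 119.7 CPM in OVE918. Both lines were above WT in every library. The test gave a log2 fold change of 0.46 in OVE853 (SE 0.13, FDR 0.0333) and 0.27 in OVE918 (SE 0.12, FDR 0.145). The OVE853 FDR was 0.0732 and 0.074 without WT replicate 2 or 3, and 0.0944, 0.0624 and 0.124 without OVE853 replicate 1, 2 or 3.

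Pxn encodes the scaffold paxillin. Its log2 fold change was −0.32 in OVE918 (SE 0.08, FDR 0.022), at 68.7 to 77.2 CPM against 82.8 to 99.4 CPM in WT, and −0.18 in OVE853 (FDR 0.181). The OVE918 FDR was 0.0918 without WT replicate 2 and 0.0634 without OVE918 replicate 1. With these, 6 alternatives put it over the limit and 16 did not. Focal adhesion kinase itself, Ptk2, had log2 fold changes of 0.28 (FDR 0.0981) and 0.13 (FDR 0.402). Bcar1, the scaffold p130Cas, had 0.05 (FDR 0.68) and 0.16 (FDR 0.157), and Tns3, tensin 3, 0.07 (FDR 0.755) and −0.27 (FDR 0.198). Zyx, the mechanosensitive LIM protein zyxin, read 76.1, 142.5 and 157.5 CPM in WT, with WT replicate 1 below every transgenic library, and had log2 fold changes of −0.49 (FDR 0.141) and −0.61 (FDR 0.0591).

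Compared directly with OVE853, OVE918 had 0 DEGs among the 26 genes by edgeR and 0 by DESeq2. By edgeR, 8 had an unadjusted p under 0.05. The share of all genes at that p was not counted, so the 8 cannot be read as a difference of the set. By FDR alone, 1 was lower, Tns1, against 0.937% of all genes, and 0 were higher, against 0.379%. The 2 higher at an unadjusted p under 0.05 were Ilk and Lims2. Tns1 was 1.59-fold lower in OVE918 (log2 fold change −0.67, SE 0.13, FDR 0.0397). The FDR was 0.0576 without WT replicate 2, 0.149, 0.126 and 0.175 without OVE853 replicate 1, 2 or 3, 0.097 without OVE918 replicate 1, and 0.0588 under filterByExpr.

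In 8 of the 26 genes every OVE918 library was below every OVE853 library (Itga3, Itga5, Itga8, Parva, Pxn, Src, Tns1 and Tns3), where 16.2% of all genes showed this. Itga8 had a log2 difference of −1.31 (SE 0.47, FDR 0.157), and it was the 1 DEG between the lines, lower in OVE918, without WT replicate 3, with only the 2 lines in the fit, or with sample weights. Itga3 had −0.51 (SE 0.13, FDR 0.0774). For the collagen and laminin receptor chains elevated in both lines, the difference was 0.49 for Itga2 (95% confidence interval −0.10 to 1.08) and 0.30 for Itga7 (−0.15 to 0.76), whereas the Tgfb1 row was 2.22-fold higher in OVE918 (FDR 0.00388).

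The matrix ligands of integrins were examined next. Of 53 ligand genes, 35 entered the test, and 11 were elevated and 1 reduced as DEGs in OVE853, where 2.51% and 1.91% of all genes were, and 9 elevated and 3 reduced in OVE918, where 2.58% and 3.01% of all genes were. A gene high in the 3 WT libraries alone could not reach the minimum in 5 libraries, so that the counts leave out ligands such as Vtn, vitronectin, at 37.5, 23.5 and 50.9 CPM in WT, 0.306 to 1.18 CPM in OVE853 and 1.04 to 1.97 CPM in OVE918, and Col6a2, a collagen VI chain, at 17.3, 35.0 and 64.1 CPM in WT and 6.32 to 10.9 CPM in the transgenic libraries. Both were chosen after their values were seen and have no test here. The 35 tested had median log2 fold changes of 0.57 and 0.27. The list holds genes the study itself named on these samples, so its counts are not independent evidence of a direction. Ranked by size of change among the ligand DEGs, the leading 5 were the same in both lines.

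Tgfbi, a TGF-β-induced matrix protein that binds integrins, read 2.91 to 4.08 CPM in WT, 57.9 to 107.7 CPM in OVE853 and 96.1 to 149.4 CPM in OVE918 (log2 fold changes 4.54 and 5.13, FDR 6.17e-06 and 1.86e-06). Spp1, osteopontin, read 0.192 to 1.44, 14.5 to 28.6 and 32.0 to 161.6 CPM (4.68 and 6.56, FDR 0.00961 and 0.00119). Tnc, tenascin-C, a ligand of α8β1 and α9β1, read 2.10 to 11.3, 31.8 to 59.0 and 63.0 to 89.4 CPM (3.01 and 3.78, FDR 0.0103 and 0.00208). These 3 ligands overlapped with WT in no transgenic library.

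Col1a1, the collagen I chain bound by α2β1 and α11β1, read 3.65 to 7.87 CPM in WT, 22.5 to 60.7 CPM in OVE853 and 27.0 to 79.3 CPM in OVE918 (log2 fold changes 2.81 and 3.18, FDR 0.0121 and 0.00396). The laminin chain Lama3 went the other way. It read 156.8, 252.1 and 253.6 CPM in WT, 31.0 to 35.1 CPM in OVE853 and 18.4 to 44.5 CPM in OVE918 (−2.77 and −2.82, FDR 0.00019 and 5.06e-05). Corneal epithelium markers summed to 239, 945 and 1630 CPM in WT replicates 1, 2 and 3 and to 96 CPM or less in both lines. Their part in the level of Lama3 was not tested. Fn1, the fibronectin bound by α5β1 and chosen here after its values were seen, read 13.8 to 16.1, 38.4 to 61.5 and 68.9 to 102.7 CPM (1.77 and 2.52, FDR 0.000257 and 1.27e-05).

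Other focal adhesion genes had medians close to that of all genes tested. Of 96 listed, 67 were tested, with 3 elevated DEGs in OVE853 (2.51% of all genes), 4 elevated and 1 reduced in OVE918 (2.58% and 3.01% of all genes), and medians of 0.02 and −0.02. By FDR alone, 9 were higher and 6 lower in OVE853, where 8.1% and 7.68% of all genes were, and 9 were higher and 12 lower in OVE918, where 8% and 11% of all genes were. The elevated DEGs of both lines were Myl9, the regulatory light chain of smooth muscle and nonmuscle myosin, Dab2, an endocytic adaptor of integrins, and Flnc, filamin C.

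Myl9 read 26.3 to 31.7 CPM in WT, 160.8 to 211.2 CPM in OVE853 and 138.4 to 154.6 CPM in OVE918 (log2 fold changes 2.71 and 2.34, FDR 7.08e-07 and 1.15e-06). Dab2 read 4.87 to 5.27, 15.7 to 17.3 and 10.5 to 16.9 CPM (1.72 and 1.54, FDR 0.000109 and 8.44e-05), and Flnc 5.99 to 12.5, 14.6 to 25.3 and 40.0 to 48.8 CPM (1.04 and 2.13, FDR 0.0224 and 0.000234). None of these overlapped with WT.

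Pdlim1, a LIM protein of stress fibers, was an elevated DEG in OVE918, at 47.5 to 96.8 CPM against 28.1 to 37.4 CPM in WT (log2 fold change 1.24, FDR 0.00647). In OVE853 its log2 fold change was 0.17 (FDR 0.666), and the difference between the lines did not pass (1.06, FDR 0.0686). Tns2, another tensin, was a reduced DEG in OVE918. Tns2 read 51.2 to 62.1 CPM in WT, 36.5 to 38.3 CPM in OVE853 and 15.3 to 21.1 CPM in OVE918 (−0.61 and −1.58, FDR 0.00932 and 9.43e-06), in the same order as Tns1. It was the 1 gene of the pathway lists past the FDR limit between the lines (−0.97, FDR 0.00966). The third list, 10 linkers of hemidesmosomes and of dystroglycan, had 7 tested, of which Plec, the plectin that anchors α6β4, was higher in both lines (0.57 and 0.63, FDR 0.0287 and 0.0103) and Sgce, a sarcoglycan, lower in OVE918 (−0.82, FDR 0.0124).

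**Figure D5:**
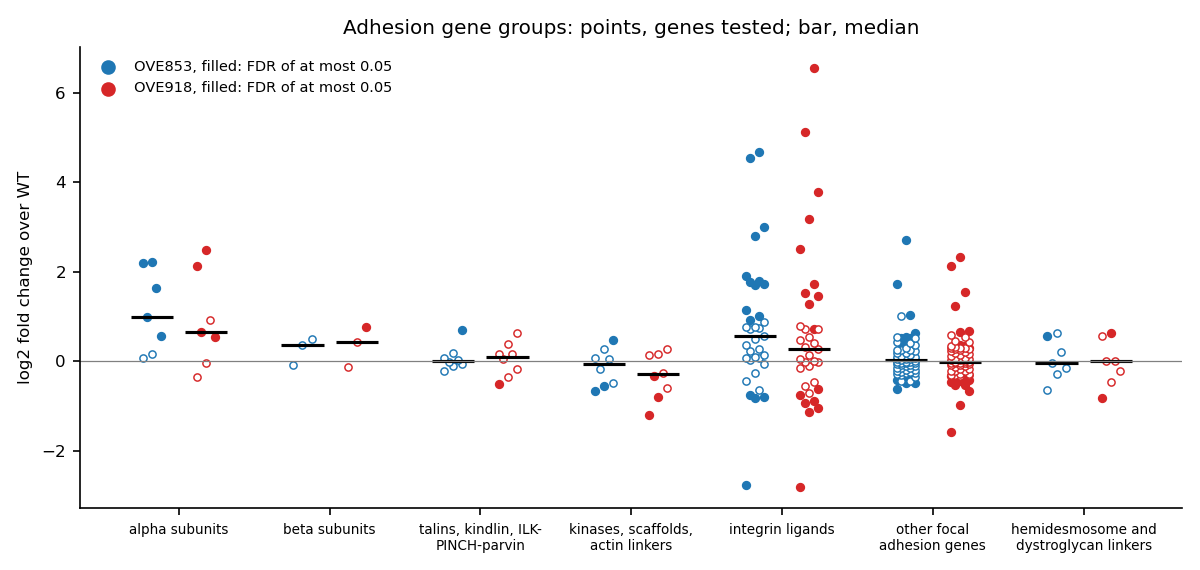
Log2 fold change over WT (y axis) of every tested gene in 7 adhesion gene groups, in OVE853 (blue) and OVE918 (red), with filled points at an FDR of at most 0.05 and bars at the group median. Medians are 0.98 and 0.65 for alpha subunits, 0.57 and 0.27 for integrin ligands, and 0.02 and −0.02 for other focal adhesion genes. The FPKM minimum kept genes that are high only in the transgenic lines and left out those high only in WT, so the alpha and ligand medians lean upwards.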

How the data were processed

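Total RNA of pooled lens epithelial explants was sequenced as paired, reverse-stranded reads. Per the study's methods and processing notes, adapters were removed by cutadapt (5.2), reads were placed on mm39 by STAR (2.7.11b), and featureCounts (2.0.8) summed read pairs over RefSeq genes. The values the authors deposited are these counts without normalization, 24073311 to 31908525 per library. Whole-tissue counts mix cell types, and depth limits precision at a few counts per gene.

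Groups were taken from the labels. Tests were run with edgeR 4.0.16 in R 4.3.3 (TMM, robust quasi-likelihood fit of all 10 libraries, Benjamini-Hochberg FDR over all genes tested). The filter of at least 2 FPKM in 5 libraries, the FDR limit of 0.05 and the minimum log2 fold change of 1 follow the authors' script, and the methods of the study guided the design. The RefSeq annotation was not used here, so FPKM rests on the lengths of primary GENCODE vM39 transcripts, found for 43252 genes by symbol and 22 by synonym, while 7489 genes had none. No length was needed for the counts themselves. Promoter windows were read from GRCm39.

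Alternatives included DESeq2 1.42.0, voom with sample weights (limma 3.58.1), other filters, lengths and fits, and leaving out each library. Leaving out libraries under filterByExpr was added after the data were seen. The fit was tested on simulated data. All 38 genes were accounted for, those called in any contrast, past the FDR limit in both lines, named by the study or most abundant were given by library, and up to 5 DEGs per pathway list and contrast were named. The values of 1 gene of the lists are not reported here. The members and lists were chosen with earlier results of these data known, and the lists hold genes named by the study. Replicate numbers did not pair libraries, since deviations of same-numbered libraries correlated at −0.303 to 0.0838.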

Additional observations from a re-analysis of the deposited data

Results flagged for a closer look

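Bcar1 in OVE918 replicate 1 stood far from the other libraries of its group, at 62.8 CPM against 66.7 to 67.0 CPM, a gap of 0.929 of the whole range. Of 26 genes examined this way in the 4 OVE918 libraries, 1 was so marked, where chance marks about 1 in 20, or 1.3 genes. Bcar1 passed the FDR limit in no comparison.

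Tns1 differed between the lines, with a log2 difference of −0.67 between OVE918 and OVE853 by the direct test (FDR 0.0397). All 4 OVE918 libraries (32.0 to 49.2 CPM) lay below all 3 OVE853 libraries (66.6 to 68.2 CPM). Tns2, outside the 38 genes, differed in the same direction (−0.97, FDR 0.00966).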

How the results depend on the processing

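The number of integrin and focal adhesion DEGs, 3 in OVE853, 3 in OVE918 and 0 between the lines, rested most on the filter and the threshold. With filterByExpr it was 6 in each line, with no filter on low counts 5 in OVE853 and 6 in OVE918, and by FDR without a minimum fold 9 in each line and 1 (Tns1) between the lines. A test against a fold of 2 left 1 in OVE853 (Itga7). Between the lines, 1 (Itga8) was called with only the groups compared, with voom and sample weights, and with both WT replicate 3 and OVE918 replicate 4 left out, an alternative chosen after seeing the data that left 2 in OVE853 (Itga7 and Itga8, with Itga2 no longer in the tested set) and 3 in OVE918 (Itga7, Itgb8 and Tns1). Leaving out 1 library at a time gave 1 to 4 in OVE853, with 1 (Itga7) without OVE853 replicate 1, 2 to 3 in OVE918, and 0 to 1 between the lines, with 1 (Itga8) without WT replicate 3. A replicate block, though the numbers did not pair the libraries, gave 2 (Itga2 and Itga7), 3 and 0, and over all genes 441, 538 and 28 DEGs against 491, 620 and 54. No fold change followed through the alternatives changed sign where it passed the FDR limit in the main fit or the alternative. Sign changes past the limit in neither were not counted. Over 38 fold changes of single genes and their alternatives, 591 values stayed on the same side of the FDR limit, 86 were no longer past it and 10 passed it newly. The alternatives include the test against a fold of 2, which a log2 fold change under 1 in size cannot pass. Part of the 86 was thus fixed in advance, and the cause of the others was not tested. At most 6 counts in any library limit what can be said of Itgb6, Itgb7 and Fermt1.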
